A study of Rattus norvegicus with 2 samples.

Results

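The genes described here encode cAMP-dependent protein kinase (PKA) and 2 of its partners in the rat hypothalamus before and at puberty. They were the catalytic subunit genes Prkaca and Prkacb, the regulatory subunit genes Prkar1a, Prkar1b, Prkar2a and Prkar2b, the inhibitor gene Pkia and the anchoring protein gene Akap5. They were picked by gene symbol, and all 8 were found among the 22777 genes of the deposited mRNA list. Hypothalamic total RNA from Sprague Dawley rats was sequenced in 1 prepubertal and 1 pubertal library. By the study's methods the prepubertal rats were 25 days old and the pubertal rats 35 days old, with 3 rats per stage, and vaginal opening was taken as the sign of puberty, so the animals were female. No treatment or altered allele was named for either stage. The deposited values had 1 column per stage and showed no spread between animals, so no test between the stages was possible. Stage, library and dissection cannot be told apart.

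PKA is the main receptor protein for cyclic AMP (cAMP). At rest it is a complex of catalytic and regulatory subunits. When cAMP binds the regulatory subunits, the catalytic subunits are released and phosphorylate ion channels, enzymes and transcription factors such as CREB. Type I holoenzymes hold the RI subunits (Prkar1a, Prkar1b) and are largely cytosolic, whereas type II holoenzymes hold the RII subunits (Prkar2a, Prkar2b) and are largely held at membranes and the cytoskeleton by A-kinase anchoring proteins. In hypothalamic neurons many peptide and amine receptors act on this pathway through the stimulatory G protein and adenylyl cyclase.

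Levels are given as FPKM, the number of fragments per length of transcript scaled to the depth of the library, summed over the transcripts of a gene. Because FPKM is per length, the genes can be set side by side within a library. Differences are given as the log2 ratio of pubertal to prepubertal FPKM + 1, so a negative value means a lower level at puberty, and a gene was called only when it differed by at least 1.2-fold or 1.5-fold on that scale. The steps between low FPKM values gave depths of about 20800000 fragments before puberty and 16200000 at puberty. From these, the number of fragments behind each value was estimated and a 95% interval was computed (exact Poisson for a level, exact binomial for a ratio of 2 FPKM values without the added 1, and a normal approximation for a change in the ratio of 2 genes). Such an interval covers counting error only, not differences between rats or errors in dividing fragments among transcripts.

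The 8 genes spanned a wide range of levels, and the order of the genes was the same in both libraries: Prkar1a, Prkacb, Prkar1b, Prkaca, Pkia, Prkar2b, Prkar2a and Akap5 from highest to lowest. Prkar1a was at 438 FPKM in the prepubertal library, exceeded by 241 genes, and Akap5 was at 8.44 FPKM, exceeded by 8922 genes. All neighbours in this order were separated beyond their counting intervals. The closest were Prkar2b and Prkar2a, with 36.6 to 39.9 against 31.8 to 36.3 FPKM in the prepubertal library and 33.9 to 37.5 against 28.7 to 33.5 FPKM in the pubertal library.

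**Figure D1:**
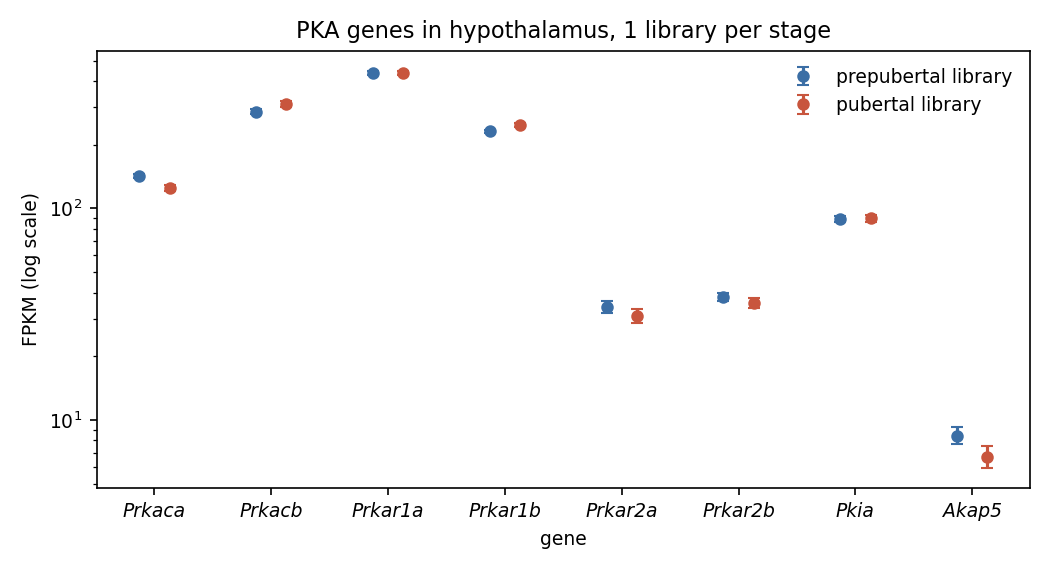
Level of each PKA gene in the prepubertal (blue) and pubertal (red) hypothalamus library, in FPKM on a log axis; points are the single deposited value per stage and bars the 95% counting interval. Prkar1a is highest in both libraries at 438 and 439 FPKM and Akap5 lowest at 8.44 and 6.71 FPKM.

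Of the 8 genes, Akap5 alone passed 1.2-fold between the libraries, and none passed 1.5-fold. Among the 13804 genes with a mean FPKM of at least 1, 15.3% were at least 1.2-fold lower and 11.3% at least 1.2-fold higher in the pubertal library, and 2.41% and 1.77% passed 1.5-fold in these directions. Thus 7 of 8 genes stayed within 1.2-fold, against 73.4% of all genes, and 4 of 8 were lower, against 51.0% of all genes. The median log2 ratio was -0.05 for the 8 genes and -0.01 for all genes. In the deposited scaling the PKA genes thus showed no shared direction, and the differences between the libraries were small. The directions depend on the scaling, since 6 of 8 genes were lower with equal FPKM sums or after centring within classes of similar transcript length, and 0 of 8 when the libraries were set to equal Actb, the beta-actin gene, which itself went from 763 to 576 FPKM (median log2 ratio of the 8 genes then 0.35). Ratios between genes of 1 library do not depend on this scaling.

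**Figure D2:**
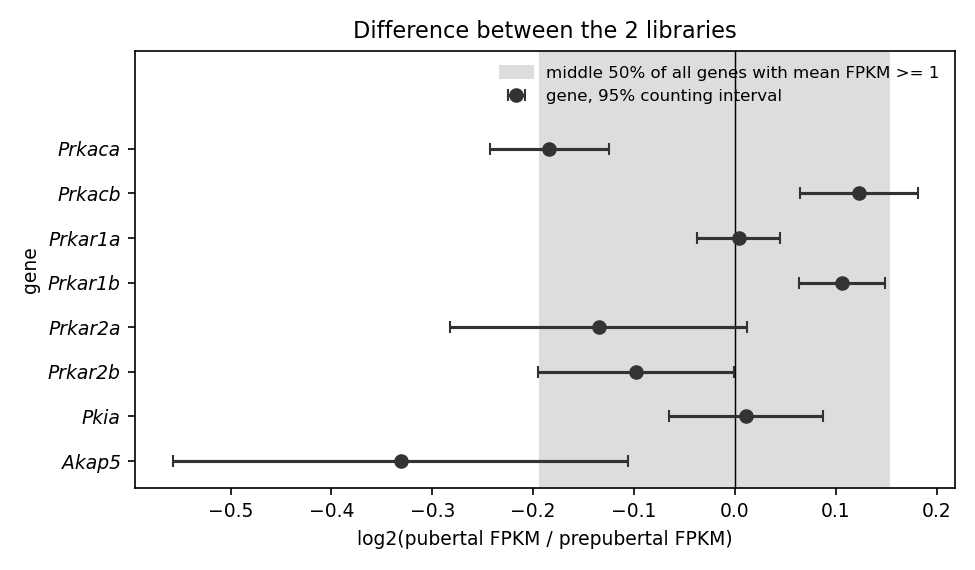
Log2 ratio of pubertal to prepubertal FPKM, without an added constant, for each PKA gene; bars are 95% counting intervals and the grey band spans the quartiles of all genes with a mean FPKM of at least 1 (-0.19 to 0.15). Akap5 lies farthest to the left at -0.33, and Prkacb and Prkar1b lie to the right of 0 at 0.12 and 0.11.

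The catalytic subunits transfer phosphate to PKA substrates, and both genes are widely expressed, with Prkacb prominent in brain. Prkaca (ENSRNOG00000005257) was at 142 FPKM before puberty and 125 FPKM at puberty, from about 5636 and 3913 fragments. Its log2 ratio was -0.18, with a counting interval of -0.24 to -0.12, and 23.6% of all genes had a lower ratio. Prkacb (ENSRNOG00000004978) was at 286 FPKM and 311 FPKM, a log2 ratio of 0.12 with an interval of 0.06 to 0.18. Neither gene passed 1.2-fold, and their ratios had opposite signs in the deposited scaling. The value of Prkacb, which has a short listed transcript (1122 nt), was 0.05 after centring within classes of similar length and 0.06 with equal FPKM sums, and that of Prkaca was 0.01 when its highest transcript was taken alone. Prkacb was 2.01 times as high as Prkaca before puberty and 2.48 times at puberty, so the share of Prkaca in the catalytic transcripts went from 33.2% to 28.7%. The log2 change of the ratio of Prkaca to Prkacb was -0.31 (counting interval -0.39 to -0.22), a value in which the scaling of the libraries cancels but a dependence on length does not. With the highest Prkaca transcript alone the share of Prkaca was 24.0% and 22.6%.

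Prkaca was the single member with more than 1 listed transcript, and its lower level lay in 1 of them. ENSRNOT00000007281 (2060 nt) was at 52.1 FPKM before puberty and 34.3 FPKM at puberty, past 1.5-fold lower, with a log2 ratio of -0.59 and an interval of -0.71 to -0.49. Of 15138 transcripts with a mean FPKM of at least 1, 3.36% were at least 1.5-fold lower. ENSRNOT00000041717 (2220 nt) was at 90.4 and 91.1 FPKM, a log2 ratio of 0.01 with an interval of -0.06 to 0.08. The share of the shorter transcript in the gene went from 36.6% to 27.4%. The division of fragments between transcripts of 1 gene is an estimate, and the intervals do not cover its error.

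The promoters of both catalytic genes are shown because their log2 ratios had opposite signs, and because PKA itself acts on promoters through CREB, which binds the cAMP response element. Each is the 250 bases before a RefSeq start in the GRCr8 assembly, Prkaca at chr19:41083190-41083439 and Prkacb at chr2:238386316-238386565, both on the minus strand and written 5′ to 3′ along the gene. Capitals mark the half-site of the cAMP response element, TGACG on either strand.
Prkaca: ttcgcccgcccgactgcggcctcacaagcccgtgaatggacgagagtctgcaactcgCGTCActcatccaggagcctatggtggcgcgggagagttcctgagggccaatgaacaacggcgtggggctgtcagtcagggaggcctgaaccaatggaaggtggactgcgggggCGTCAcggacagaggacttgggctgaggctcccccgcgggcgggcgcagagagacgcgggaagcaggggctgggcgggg
Prkacb: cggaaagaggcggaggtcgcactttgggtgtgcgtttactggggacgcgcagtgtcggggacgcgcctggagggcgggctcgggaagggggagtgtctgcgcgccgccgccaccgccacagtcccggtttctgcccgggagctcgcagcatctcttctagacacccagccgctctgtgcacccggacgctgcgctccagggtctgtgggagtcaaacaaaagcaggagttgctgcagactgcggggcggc
The Prkaca sequence held 2 half-sites, whose first bases lay 193 and 79 bases before the start, and the Prkacb sequence held none. Of 7 promoters listed for 6 of the 8 genes, 1 held the half-site and 0 held the full element, TGACG followed by TCA, which contains the half-site on both strands. Over all 33469 rat promoters of this length, 18.2% held at least 1 half-site, 3.98% held 2 or more and 1.59% held the full element. The bases of the Prkaca and Prkacb windows were 67.6% and 68.0% G or C, against a median of 51.2% over all promoters. These letters describe the sequence only, and binding was not measured.

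The authors' neighbour list places a long non-coding RNA (lncRNA) locus, XLOC_213949, beside Prkaca. Its transcript TCONS_00246899 (1570 nt) was at 0.233 FPKM before and 1.45 FPKM at puberty, with a log2 ratio of 0.99 in FPKM + 1. These levels rested on about 6 and 31 fragments, so the counting interval of the ratio without the added 1 was wide, 1.36 to 4.19 on the log2 scale. Of 1806 lncRNAs above 0 in both libraries, 72 had a larger ratio. The paper cites its list of predicted targets for differentially expressed genes, so a high rank may follow from how the list was made. The other transcript of the locus, TCONS_00242301 (4072 nt), went from 1.42 to 1.13 FPKM, and the sum of both amounted to 1.65 and 2.58 FPKM (log2 ratio 0.43). The transcripts share an identical stretch of 1086 nt, from base 302 to base 1387 of TCONS_00246899, so their fragments there were divided by estimation. Bases 1328 to 1447 of TCONS_00246899 are shown to mark where the transcripts part, with capitals for the end of the shared stretch and lower case for the bases after it.
TCONS_00246899: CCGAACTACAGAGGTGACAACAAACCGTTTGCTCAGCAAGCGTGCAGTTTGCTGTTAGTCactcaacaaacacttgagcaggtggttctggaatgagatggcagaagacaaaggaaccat
TCONS_00246899 was thus higher where Prkaca was slightly lower, whereas TCONS_00242301, the other transcript of the neighbour, was lower (counting interval -0.78 to 0.11). These values rest on 1 library per stage, and whether the differences are related was not tested.

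The regulatory subunits hold the catalytic subunits inactive until cAMP binds. Prkar1a (ENSRNOG00000049876), the widely expressed RIα gene, was at 438 FPKM before and 439 FPKM at puberty, with a log2 ratio of 0.00 and a counting interval of -0.04 to 0.05. Prkar1b (ENSRNOG00000028733), the RIβ gene found mainly in neurons, was at 231 and 249 FPKM, a log2 ratio of 0.11 with an interval of 0.06 to 0.15. The RI genes thus kept within 1.2-fold, and the interval of Prkar1a included 0 while that of Prkar1b did not. The ratio of Prkar1b to Prkar1a went from 0.528 to 0.567, a log2 change of 0.10 (0.04 to 0.16).

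Both RII genes were far lower than the RI genes. Prkar2a (ENSRNOG00000020284), the RIIα gene, was at 34.0 FPKM before and 31.0 FPKM at puberty, with a log2 ratio of -0.13 and a counting interval of -0.28 to 0.01. Prkar2b (ENSRNOG00000009079), the RIIβ gene of brain and adipose tissue, was at 38.2 and 35.7 FPKM, a log2 ratio of -0.09 with an interval of -0.19 to -0.00062. In the deposited scaling both values were lower in the pubertal library, with 1 interval that included 0 and 1 that ended just under it. Setting the libraries to an equal median ratio shifts log2 ratios by 0.0056, which would carry that end past 0. The ratio of Prkar2b to Prkar2a was 1.12 and 1.15, a log2 change of 0.04 (-0.14 to 0.21).

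Set against each other within a library, the regulatory transcripts were mostly of type I. Prkar1a made up 59.1% of them before puberty and 58.2% at puberty, and Prkar1b 31.2% and 33.0%. Prkar2a made up 4.59% and 4.11%, and Prkar2b 5.15% and 4.73%. The RI genes were 9.26 times as high as the RII genes before puberty and 10.3 times at puberty. The log2 change of the ratio of type II to type I was -0.16, with a counting interval of -0.25 to -0.06.

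**Figure D3:**
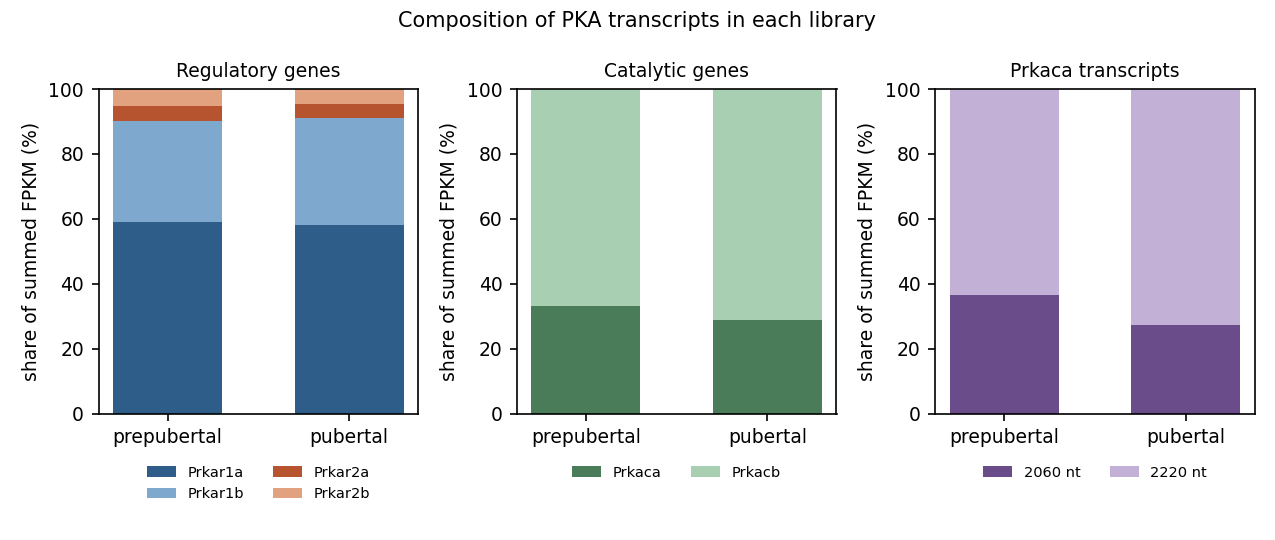
Share of summed FPKM, in percent from 0 to 100, taken by each regulatory gene (left), each catalytic gene (middle) and each Prkaca transcript (right) in the prepubertal and pubertal library. Type II regulatory genes take 9.75% and 8.84%, Prkaca 33.2% and 28.7% of the catalytic transcripts, and the 2060 nt transcript 36.6% and 27.4% of Prkaca.

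The totals of both subunit classes kept nearly the same ratio to each other. The catalytic genes summed to 428 FPKM before puberty and 437 FPKM at puberty, and the regulatory genes to 741 and 754 FPKM. The ratio of catalytic to regulatory transcripts was 0.578 and 0.579, a log2 change of 0.00 with an interval of -0.05 to 0.05. The levels are of RNA, and no subunit protein was measured.

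Pkia encodes a small heat-stable inhibitor that binds free catalytic subunits and carries them out of the nucleus. Pkia (ENSRNOG00000012095) was at 89.1 FPKM before and 89.8 FPKM at puberty, with a log2 ratio of 0.01 and a counting interval of -0.06 to 0.09. Catalytic transcripts were 4.81 and 4.86 times as high as Pkia. Neither the level of the inhibitor nor its ratio to the catalytic genes (log2 change -0.02, interval -0.10 to 0.07) differed beyond counting error.

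Akap5 encodes the neuronal anchoring protein AKAP79/150, which holds type II PKA, the phosphatase calcineurin and protein kinase C at the postsynaptic membrane. Akap5 (ENSRNOG00000006410) was at 8.44 FPKM before puberty and 6.71 FPKM at puberty, from about 426 and 265 fragments. The gene was 1.22-fold lower at puberty, a log2 ratio of -0.29, with an interval of -0.56 to -0.11 for the ratio without the added 1. Among all genes, 13.2% had a lower ratio, so a difference of this size was common. With equal Actb the log2 ratio was 0.07, and after centring within classes of similar transcript length it was -0.26, just short of 1.2-fold. The catalytic genes were 50.8 times as high as Akap5 before puberty and 65.1 times at puberty, and the log2 change of Akap5 over the catalytic sum was -0.36 (-0.58 to -0.13). Relative to the RII genes, which it anchors, the log2 change was -0.22, with an interval of -0.45 to 0.02 that included 0.

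Akap5, Prkaca, Prkar2a and Prkar2b were lower in the library in which cortex, hippocampus and thalamus markers were lower, and the part of such tissue in their values was not tested. All 5 cortex and hippocampus markers with a mean FPKM of at least 1 were past 1.2-fold lower, and all 9 found summed to 46.8 FPKM before puberty and 24.99 FPKM at puberty. Among them Slc17a7, the vesicular glutamate transporter of cortical neurons, went from 26.2 to 12.8 FPKM. All 7 thalamus markers were lower, 5 of them past 1.2-fold, and summed to 388 and 330 FPKM. Slc17a6 alone made up 206 and 188 FPKM of these sums, with a log2 ratio of -0.13. Of the 15 hypothalamus markers with a mean FPKM of at least 1, 12 were higher, 7 of them past 1.2-fold, and 3 were lower, with Gnrh1, the gonadotropin-releasing hormone gene, past 1.2-fold (8.46 to 6.28 FPKM). All 17 found summed to 2709 and 4115 FPKM, sums that mainly follow Pmch (1675 and 2723 FPKM) and Oxt (411 and 686 FPKM). The markers of the labelled tissue were thus present in both libraries. In bulk RNA, fewer cells of a type and less RNA per cell cannot be told apart.

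The other marker lists are given by the summed FPKM of all genes found, in the prepubertal and then the pubertal library. Neuron markers summed to 2239 and 2162 FPKM, with 5 of 6 lower and a median log2 ratio of -0.07. Striatum markers summed to 150 and 159 FPKM, astrocyte markers to 1921 and 1836 FPKM and oligodendrocyte markers to 12490 and 13417 FPKM. Progenitor markers summed to 38.1 and 32.0 FPKM, endothelium markers to 134 and 141 FPKM and choroid plexus markers to 35.6 and 30.3 FPKM. In these lists the genes went in both directions, except that both progenitor markers were lower. Microglia markers were higher in 6 of 6 genes, 1 of them past 1.2-fold, with sums of 205 and 250 FPKM. All 4 red blood cell genes were past 1.5-fold higher, from a sum of 6406 to 12539 FPKM. All 4 fibroblast and meninges genes were lower, 3 past 1.2-fold, from a sum of 43.4 to 27.4 FPKM. Pituitary markers summed to 31.6 and 44.4 FPKM, with 2 of 6 listed at 0 before puberty and 0 of 6 at puberty. Of the 5 with a mean FPKM of at least 1, 1 was lower and 3 were past 1.2-fold higher. Among these 3, Gh1 (0.87 and 4.09 FPKM) and Prl (0 and 3.40 FPKM) were past 1.5-fold higher, at low levels.

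**Figure D4:**
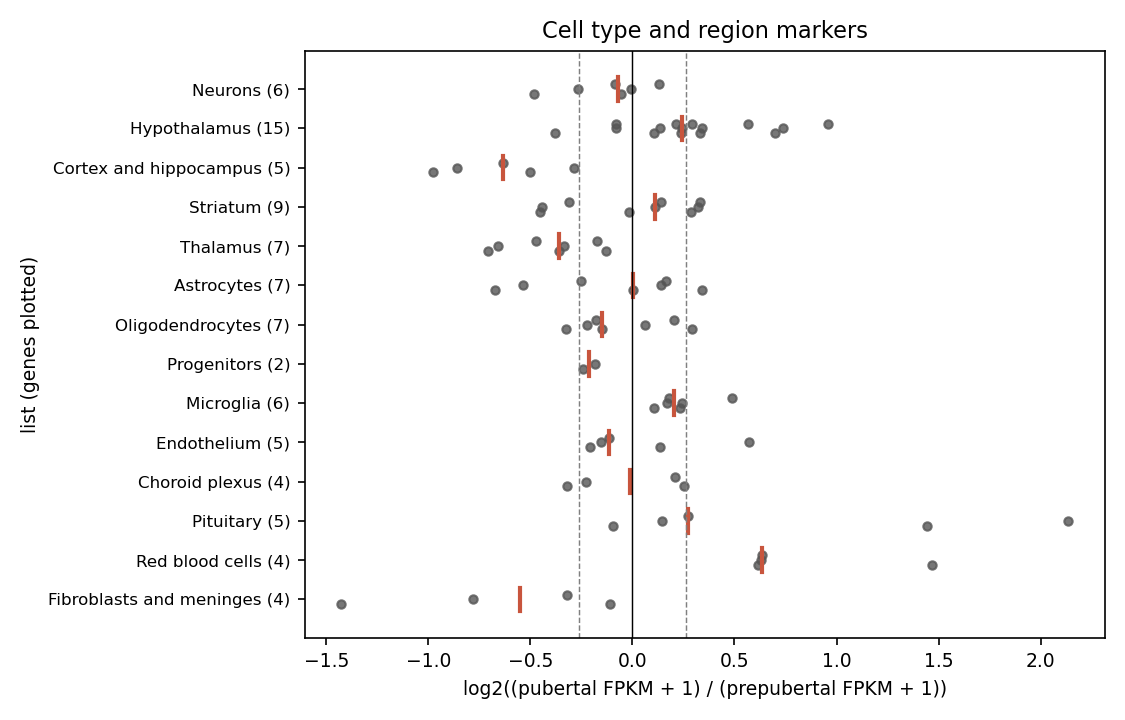
Log2 ratio of pubertal to prepubertal FPKM + 1 for the markers of each cell type or region with a mean FPKM of at least 1 (gene numbers in brackets); grey points are genes, red lines list medians and dashed lines mark 1.2-fold. Cortex and hippocampus markers lie to the left (median -0.63), and hypothalamus (0.24) and red blood cell markers (0.63) to the right.

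The other genes of the cAMP pathway differed downward more often than upward. Of 106 names in 9 lists, 105 were found and 92 had a mean FPKM of at least 1. Of these 92, 56 were lower at puberty and 36 were higher, 29 were past 1.2-fold lower and 3 past 1.2-fold higher, and 4 were past 1.5-fold lower and 0 past 1.5-fold higher. Transcript length went with this pattern: over all genes the share that was lower was 38.8% among the 3454 genes with the shortest transcripts (up to 1284 nt) and 68.6% among the 3451 with the longest (above 3091 nt), and the pathway genes had a median length of 2647 nt against 1995 nt. After the ratios were centred within classes of similar length, 22.6% of the 93 pathway gene entries (Gnas has a pair) were past 1.2-fold lower and 3.23% past 1.2-fold higher, against 14.4% and 10.2% of all genes. With equal Actb the median of each of the 9 lists was above 0, so the counts and directions given next hold for the deposited scaling.

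The pathway lists are read against all genes, of which 51.0% were lower and 15.3% past 1.2-fold lower. Of 15 measurable Gs-coupled receptor genes, 10 were lower and 5 higher, with 6 past 1.2-fold lower and 1 higher (median -0.12, and -0.17 after centring within length classes). Adcyap1r1, the PACAP receptor gene, had the highest level at 55.7 and 60.3 FPKM. The serotonin receptor gene Htr4 rose from 6.54 to 8.64 FPKM (log2 ratio 0.35), and the dopamine receptor gene Drd1 fell from 3.70 to 2.46 FPKM (-0.44). Among 7 G protein alpha genes, 4 were lower and 3 higher (median -0.09), with 1 past 1.2-fold, close to the shares over all genes. Gnas, which encodes the stimulatory Gs alpha, was at 969 and 856 FPKM, and Gnai2, an inhibitory alpha subunit gene, at 125 and 137 FPKM. Gnao1, the Go alpha gene of neurons, was that gene, from 59.7 to 47.0 FPKM (-0.34).

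Of 8 adenylyl cyclase genes, 7 were lower, 4 past 1.2-fold, and 1 was higher, with a median log2 ratio of -0.24 that was -0.12 after centring within length classes. The calmodulin-stimulated cyclase gene Adcy1 fell from 31.9 to 23.2 FPKM (-0.44), and Adcy3, Adcy5 and Adcy6 were also past 1.2-fold lower. Adcy2 was the highest at 57.9 and 54.4 FPKM, and Adcy7 went from 6.27 to 6.97 FPKM. The phosphodiesterases, which break down cAMP, showed no common direction, with 8 of 15 lower and 7 higher (median -0.00), 4 past 1.2-fold lower and 1 higher. Pde1b had the highest level at 41.9 and 41.8 FPKM, Pde3a fell from 2.23 to 1.19 FPKM (-0.57) and Pde8a rose from 4.70 to 6.15 FPKM (0.33).

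**Figure D5:**
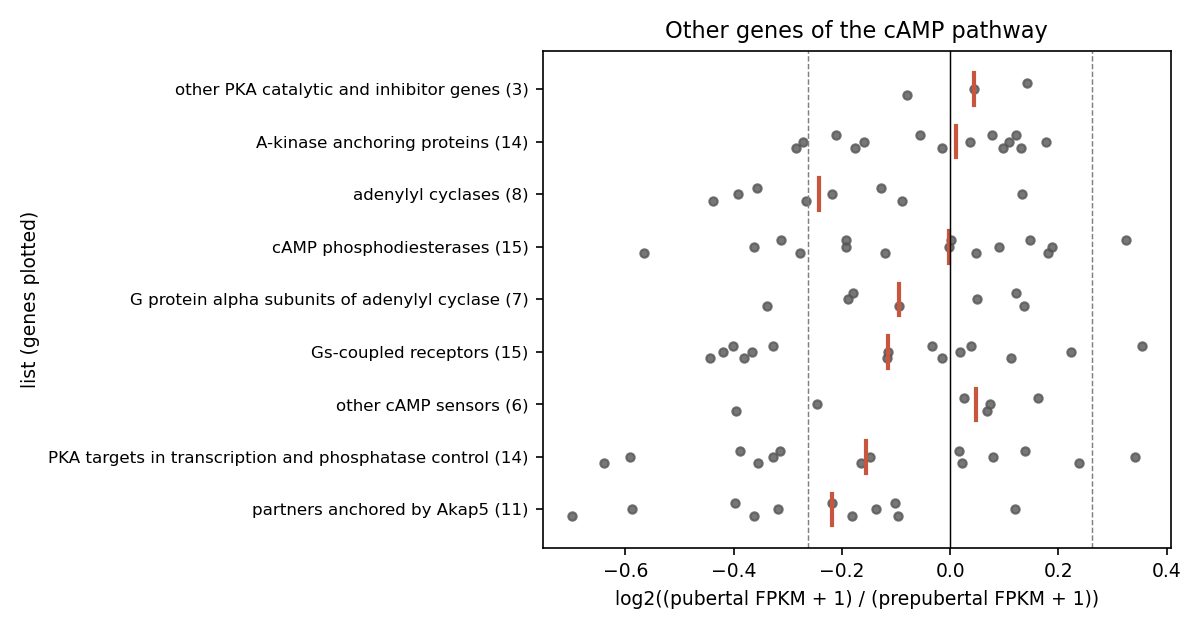
Log2 ratio of pubertal to prepubertal FPKM + 1 for 9 lists of other cAMP pathway genes with a mean FPKM of at least 1 (gene numbers in brackets); grey points are genes, red lines list medians and dashed lines mark 1.2-fold. Adenylyl cyclases (median -0.24) and partners anchored by Akap5 (-0.22) have the lowest medians as plotted (after centring within length classes, which is not drawn, -0.12 and -0.15, with Gs-coupled receptors at -0.17), and anchoring proteins (0.01) and phosphodiesterases (-0.00) lie about 0.

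The remaining kinase and inhibitor genes stayed within 1.2-fold, and the anchoring genes went in both directions. Prkx, a PKA-related catalytic gene, was at 4.12 and 3.85 FPKM, and the inhibitor genes Pkib and Pkig were at 5.22 and 5.87 and at 43.3 and 44.7 FPKM. None of these 3 genes passed 1.2-fold. Of 14 A-kinase anchoring protein genes, 7 were lower and 7 higher, with a median of 0.01. Map2, a dendritic protein that anchors type II PKA, was the highest at 255 and 279 FPKM, and Akap10, which binds both RI and RII, went from 14.5 to 16.5 FPKM. Akap12, the scaffold gravin, fell from 46.7 to 38.2 FPKM (-0.28), and with Sphkap, an anchor of type I PKA that went from 26.1 to 21.4 FPKM (-0.27), it made up the 2 genes past 1.2-fold. Of 6 genes listed as other cAMP sensors, from families with members that respond to cAMP without PKA, 2 were lower and 4 higher (median 0.05). Rapgef4 (Epac2) was at 53.2 and 55.8 FPKM, Rapgef3 (Epac1) at 11.9 and 13.4 FPKM, and the HCN channel gene Hcn3 fell from 8.82 to 6.46 FPKM (-0.40).

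Of 14 genes for proteins of transcription and phosphatase control listed as PKA targets, 8 were lower and 6 higher. Of these genes 6 were past 1.2-fold lower and 1 higher, against 51.0% lower and 15.3% past 1.2-fold lower over all genes. The median was -0.16, and -0.07 after centring within length classes. These are RNA levels of the targets themselves, and PKA activity was not measured. The CREB coactivator gene Crtc1 fell from 5.47 to 3.16 FPKM (-0.64), and the salt-inducible kinase gene Sik1, which PKA inhibits and CREB induces, fell from 5.29 to 3.17 FPKM (-0.59). Both were past 1.5-fold. Crem, which encodes cAMP-responsive activators and repressors, rose from 22.4 to 28.7 FPKM (0.34), and Sik3 had the highest level at 32.3 and 28.7 FPKM. Creb1, the CREB gene itself, was at 18.9 and 19.1 FPKM (0.02) and is named here after its values were seen.

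Of 11 genes for partners held by AKAP79/150, 10 were lower, 5 of them past 1.2-fold, against the same shares over all genes. Their median was -0.22, and -0.15 after centring within length classes. The regulatory subunit gene of calcineurin, Ppp3r1, fell from 130 to 85.9 FPKM (-0.59). The calcineurin catalytic gene Ppp3ca had the highest level at 147 and 134 FPKM, and Dlg1, which encodes the postsynaptic scaffold SAP97, was the 1 higher gene, at 23.8 and 26.0 FPKM. The part of cortex, hippocampus and thalamus tissue, whose markers were lower by the values given above, in the levels of this and the other lists was not tested.

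Other kinase families were set beside the PKA genes, chosen after the members' values were seen. Of the 4 genes of calcium/calmodulin-dependent kinase II, a kinase of the synapse, 3 were lower and 2 past 1.2-fold lower, with a median of -0.27, against 51.0% and 15.3% of all genes. Camk2a, the isoform of forebrain excitatory neurons, fell from 59.6 to 24.8 FPKM (-1.23), and Camk2b from 121 to 97.2 FPKM (-0.31). The 6 measurable subunit genes of AMP-activated kinase, an energy sensor, had a median of 0.05, ranged from -0.19 to 0.15, and were all within 1.2-fold, as were 73.4% of all genes.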

How the data were processed

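Hypothalamic RNA of 1 prepubertal and 1 pubertal library was analysed, grouped by the labels. Per the study's methods, ribosomal RNA was removed, paired reads were aligned with TopHat, transcripts were assembled with Cufflinks (version 2.1.1 in the submitters' processing notes) and the authors computed FPKM per transcript with Cuffdiff 2.1.1. How the 3 rats per stage were combined is not given in the sources used here. The labels name the build Rnor_5.0, whereas the methods link a later annotation, so no coordinates from the files are given. The deposited FPKM tables have 1 column per stage. The authors' comparison columns hold fold changes, p-values and adjusted p-values and were not used.

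FPKM was summed per gene for 26324 mRNA transcripts. Ratios used a pseudocount of 1 FPKM, and genes with a mean FPKM of at least 1 formed the background. Gene symbols come from the deposited tables. Depth was estimated from transcripts of at least 2000 nt with up to about 5 fragments, of which 97.1% of 340 (prepubertal) and 95.3% of 403 (pubertal) were whole within 0.1 fragment, with length offsets of 255 and 250 nt. The steps were tested on simulated data. Values were computed in Python 3.11.15 with pandas 2.3.3, numpy 2.4.6 and scipy 1.17.1 and drawn with matplotlib 3.10.9. Named genes were all members and, per pathway list, the highest, the largest rise, the largest fall and any past 1.5-fold, with a few others named as their list's calls. One gene that this rule names is not reported here. Members, lists and marker genes were chosen with earlier results of these data known. Promoters are from RefSeq (GRCr8), where Prkar2a and Pkia had no match. The deposited columns of other kinds are transcript lengths and lncRNA sequences. Alternatives were other scalings, pseudocounts, filters, a length correction, the other deposited FPKM column and single transcripts. With 1 library per stage no replicate could be left out.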

Additional observations from a re-analysis of the deposited data

How the results depend on the processing

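Member ratios and list medians were recomputed with a pseudocount of 0.1 (member ratios also with none), other scalings, the FPKM of the comparison table, the highest transcript of each gene alone and centring within 10 length classes. Subunit ratios were recomputed with the comparison table and the highest transcript, and the background shares with the pseudocount of 0.1 and other expression filters. Of the resulting values 148 moved by less than the limit set for them and 31 by more, both with some changes of sign, and 1 value past 1.2-fold changed sign. The limits differed between values, so these counts do not rest on 1 common scale. For example, a change from 4 to 6 lower members stayed within its limit, whereas Prkar1a going from 0.0038 to 0.054 with equal neuron markers passed its own. With the highest transcript alone, the ratio of catalytic to regulatory transcripts was 0.508 (prepubertal) and 0.534 (pubertal), and the share of Prkaca was 24.0% and 22.6%, because 1 of its transcripts was left out. Scaling to equal Actb, the gene the study used for PCR, was added after seeing the data. Actb was at 763 FPKM before and 576 FPKM at puberty, so pubertal values were multiplied by 1.32. The median member log2 ratio was then 0.35, 0 members were lower, and Akap5 (0.0668), Prkaca (0.22), Prkar2a (0.26) and Prkar2b (0.30) went from below to above 0. Every pathway list median was then above 0. Scaling to neuron markers (factor 1.04), also added after seeing the data, to equal sums (0.960) or to the median ratio moved the values less. Outside equal Actb, Akap5 ranged from -0.34 to -0.25, Prkaca from -0.24 to 0.01 (highest transcript alone), Prkacb from 0.05 to 0.17 and Prkar1b from 0.05 to 0.16. Over those settings Prkar1a ranged from -0.06 to 0.05 and Pkia from -0.05 to 0.06, so their sign was not fixed, while Prkar2a (-0.19 to -0.08) and Prkar2b (-0.15 to -0.04) stayed below 0. After length centring 6 members were lower and 0 were past 1.2-fold. No paired analysis was possible because each stage has 1 column and the labels give no shared numbers. The limit on all values is 1 library per stage.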
